A study of Mus musculus with 2 samples.

Results

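The meiotic double-strand break formation genes are 6 protein-coding genes, Prdm9, Spo11, Mei1, Mei4, Rec114 and Ankrd31, chosen by name for their known roles, out of 21911 protein-coding genes whose promoters were scored. The study mapped open chromatin with DNase-seq, where the enzyme DNase I cuts accessible DNA and sequencing starts at the cuts, in whole testis of B6CASTF1/J males at 14 days of age. B6CASTF1/J is the first-generation cross of C57BL/6 with a castaneus-derived strain. The labels give 2 libraries, biological replicates 1 and 2 of 1 group, and name no treatment. They name 3 males for replicate 1 and no number for replicate 2, and the donor label is shared, so some of the difference between the libraries can be technical. No genotype, treatment or age was compared, and no test between groups was possible.

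Meiotic recombination begins with programmed breaks of the DNA in early prophase. PRDM9, a histone methyltransferase with DNA-binding zinc fingers, marks where breaks will be made, and SPO11, a relative of topoisomerases, cuts the DNA. MEI4 and REC114 assemble with IHO1 on the chromosome axes and are needed for cutting, ANKRD31 binds REC114 and is needed for timely breaks, above all in the region shared by the X and Y chromosomes, and MEI1 is needed for break formation. The parental strains of this cross are known for Prdm9 alleles that differ in their zinc fingers. The values here sum over both alleles, and the effect of castaneus sequence on alignment to the C57BL/6J reference was not tested.

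A peak is a stretch that the authors listed as open in 1 library at a false discovery rate (FDR) below 0.05, and its value is their signal, on a scale set per library. The promoter value of a gene is that of the highest peak within 1000 bp of any annotated transcription start, and a gene with such a peak in both libraries is called open. The main start is the annotated start at that highest peak, counted as base 0, with negative positions upstream. A footprint is a short stretch inside open chromatin that was cut less than its surroundings, also listed by the authors per library. The lists held 101172 peaks and 269247 footprints in replicate 1, and 117359 peaks and 349555 footprints in replicate 2, and the depth in reads is unknown. Of the germ cell markers 5 of 5 were open (median promoter value 8.57 in replicate 1 and 8.54 in replicate 2), as were 4 of 4 of Sertoli cells (2.38 and 2.70) and 3 of 3 of Leydig cells (0.715 and 0.808). Of 3 leukocyte markers Ptprc alone was open (0.323 and 0.196), of 3 skeletal muscle markers Ckm alone (3.73 and 3.35), and of 3 liver markers none in both libraries, Ttr having 0.657 in replicate 2 alone. The part of other cell types in the values of the 6 genes was not tested. In whole tissue, fewer cells of a type with open chromatin and less open chromatin per cell cannot be told apart.

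The sequences under the highest promoter peaks are shown because each holds footprints found in both libraries. They are RefSeq's GRCm38.p6 (the mm10 build), C57BL/6J, 5′ to 3′ on the strand of the gene. Capitals mark bases inside a footprint in both libraries. Each stretch but that of Mei1 ends at most 30 bases into the first exon. The Prdm9 stretch is chr17:15564325-15564540 on the minus strand, that of Spo11 is chr2:172979741-172979871 on the plus strand, that of Mei4 is chr9:81863521-81863699 on the plus strand, that of Rec114 is chr9:58741530-58741660 on the minus strand and that of Ankrd31 is chr13:96748201-96748301 on the plus strand. The Mei1 peak lies mostly downstream of the start, with its middle in an exon. For it, 30 bases around the shared footprint are given, at chr15:82070067-82070096 on the plus strand.
Prdm9: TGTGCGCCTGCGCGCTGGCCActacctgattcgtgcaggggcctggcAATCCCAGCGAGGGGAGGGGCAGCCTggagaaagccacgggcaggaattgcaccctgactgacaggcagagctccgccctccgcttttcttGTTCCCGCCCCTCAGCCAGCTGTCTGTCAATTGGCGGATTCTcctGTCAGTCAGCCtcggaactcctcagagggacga
Spo11: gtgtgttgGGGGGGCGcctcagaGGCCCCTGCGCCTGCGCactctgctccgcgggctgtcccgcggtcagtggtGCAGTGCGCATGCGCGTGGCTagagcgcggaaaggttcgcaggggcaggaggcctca
Mei4: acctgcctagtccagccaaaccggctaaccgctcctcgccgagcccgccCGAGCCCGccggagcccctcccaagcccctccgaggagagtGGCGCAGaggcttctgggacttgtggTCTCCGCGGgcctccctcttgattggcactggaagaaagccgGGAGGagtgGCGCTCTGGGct
Rec114: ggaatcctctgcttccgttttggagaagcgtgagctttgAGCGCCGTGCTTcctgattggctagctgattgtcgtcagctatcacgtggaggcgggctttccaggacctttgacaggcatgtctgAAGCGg
Ankrd31: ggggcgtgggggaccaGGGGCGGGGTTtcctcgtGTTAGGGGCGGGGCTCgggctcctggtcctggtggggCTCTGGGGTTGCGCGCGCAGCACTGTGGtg
Mei1: ccgACTGCGCTTGCGCAGAAGCGGCGcggg

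Prdm9 had the highest promoter value of the 6 genes, Mei1 the lowest, and all 6 were open in both libraries. Over all protein-coding genes 68.7% were open, so an open promoter by itself sets these genes little apart. All 6 also had a peak in both of the authors' shorter lists, which reach down to a stricter FDR, against 63.4% of all genes. The median promoter value over the 6 genes was 4.80 in replicate 1 and 4.40 in replicate 2, against 4.04 and 3.68 over the 15057 open genes and 1.42 and 1.30 over all genes. The 6 values fell at 3 levels, with Prdm9 above the rest, Ankrd31, Mei4 and Spo11 close to each other, and Rec114 and Mei1 below the median of open genes.

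**Figure D1:**
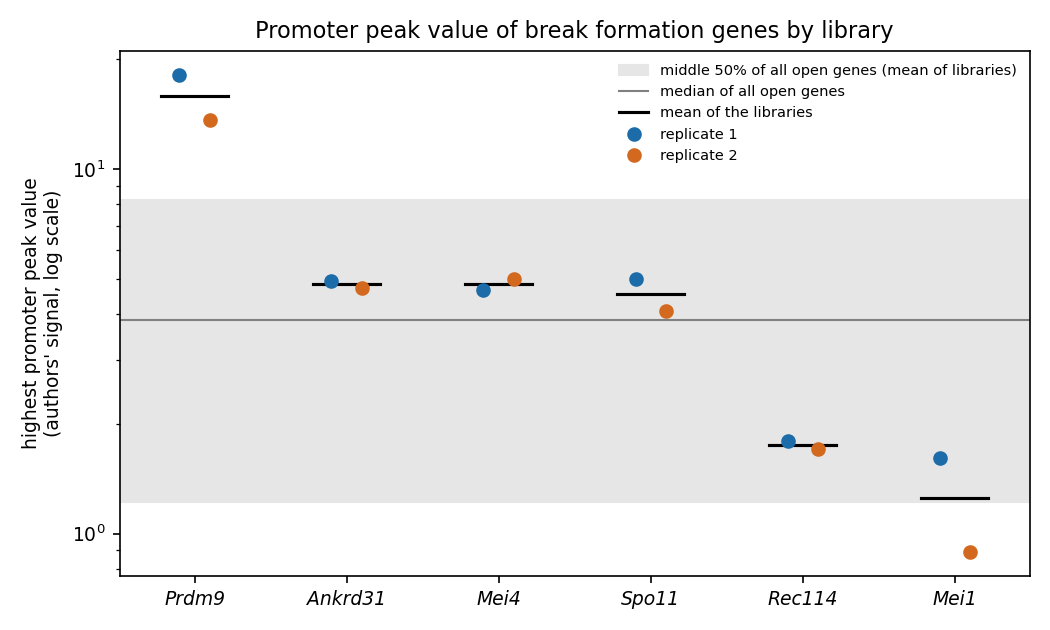
Highest promoter peak value (the authors' signal, log axis) of each gene in replicate 1 (blue) and replicate 2 (orange), with the mean of the libraries as a black line. The grey band is the middle 50% of the 15057 open genes and the grey line their median of 3.85. Prdm9 lies above the band in both libraries and Mei1 in replicate 2 lies below it.

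Prdm9 (ENSMUSG00000051977.16, chr17:15543079-15564354, minus strand) had promoter values of 18.2 in replicate 1 and 13.7 in replicate 2, a mean of 15.9 ± 3.20 (SD, n = 2). That mean stood at percentile 96.8 of all genes, above each of the other 5 genes in both libraries. The highest peak ran from -186 to 53 in replicate 1 and from -186 to -67 in replicate 2, so that in replicate 2 the called peak stops short of the start. The FDR track shows no such gap there: all 201 bases within 100 bp of the main start were below the limit in both libraries. The main start is that of a transcript with a retained intron, and a protein-coding transcript starts within the same peak of replicate 1 at 15564340. Within its promoter windows, 5523 bp in all, 1255 bases passed the FDR limit in replicate 1 and 1702 in replicate 2. A second, weak peak of 0.323 and 0.419 lay near another annotated start of Prdm9 at 15563323, and replicate 2 alone had a peak of 0.317 from -810 to -693.

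Several footprints of Prdm9 had nearly the same limits in both libraries. Replicate 1 had 7 footprints in the promoter windows and replicate 2 had 10, of which 5 and 6 overlapped a footprint of the other library. Counted only where wholly inside a promoter peak, they numbered 3 in the mean of the libraries. The footprint from -188 to -166 had the same limits in both, and that from -139 was 27 bases wide in replicate 1 and 26 in replicate 2. A footprint of 58 bases in replicate 1, from -50 to 7, was the widest at any of the 6 genes and covers the main start. Replicate 2 divided the same stretch into footprints of 42 bases (-48 to -7) and 11 bases (-3 to 7).

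Spo11 (ENSMUSG00000005883.15, chr2:172977700-172993576, plus strand) had promoter values of 4.99 in replicate 1 and 4.08 in replicate 2, a mean of 4.53 ± 0.643 (SD, n = 2) at percentile 68.9. The highest peak was the same 200 bp in both libraries, from -101 to 98 of the start at 172979842, from which a protein-coding transcript is annotated. The 5′ end of the gene as annotated, at 172977700, belongs to a transcript with a retained intron, and the peaks there were weak, at 0.511 and 0.630. The footprints numbered 8 in replicate 1 and 15 in replicate 2, the largest difference in number among the 6 genes. Of these, 5 in each library overlapped the other library, among them those from -27 to -7 in replicate 1 and from -27 to -4 in replicate 2, just upstream of the main start.

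Ankrd31 (ENSMUSG00000109561.1, chr13:96748272-96910039, plus strand) encodes the ankyrin repeat partner of REC114. Its promoter values were 4.94 in replicate 1 and 4.72 in replicate 2, a mean of 4.83 ± 0.155 (SD, n = 2) at percentile 70.2. The highest peak had the same limits in both libraries, from -71 to 108. A second peak of 0.720 and 0.834, from 329, made Ankrd31 the one gene of the 6 with 2 separate promoter peaks in both of the authors' shorter lists. A footprint that begins at base 0, the main start itself, was 28 bases wide in replicate 1 and 29 in replicate 2, and all 4 footprints of replicate 1 overlapped one of the 6 in replicate 2.

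Mei4 (ENSMUSG00000043289.12, chr9:81863670-82206007, plus strand), an axis-bound partner of REC114, had promoter values of 4.65 in replicate 1 and 5.00 in replicate 2, a mean of 4.83 ± 0.248 (SD, n = 2) at percentile 70.1. The library values of Ankrd31, Mei4 and Spo11 overlap, so their order lies within the spread. Its value was the higher one in replicate 2. It had 11 footprints in each library, of which 9 and 8 overlapped the other library, and a mean of 6.5 lay wholly inside a promoter peak. All of its 3 annotated starts lie within the main peak of both libraries.

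Rec114 (ENSMUSG00000074269.10, chr9:58652850-58743964, minus strand), which binds MEI4 and ANKRD31, had promoter values of 1.80 in replicate 1 and 1.71 in replicate 2, a mean of 1.75 ± 0.0606 (SD, n = 2) at percentile 53.3. The single promoter peak had the same limits in both libraries, from -101 to 78 of the start at 58741559. The other 4 annotated starts of Rec114, the 5′ end of the gene among them, had no peak within 1000 bp. Each library had 5 footprints, and 3 of them overlapped the other library. The nearest start of another gene, that of Nptn, lies 7316 bp away and had a promoter value of 13.9 in replicate 1 and 13.6 in replicate 2.

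Mei1 (ENSMUSG00000068117.10, chr15:82069996-82126814, plus strand), a large protein needed for break formation, had promoter values of 1.61 in replicate 1 and 0.891 in replicate 2, a mean of 1.25 ± 0.511 (SD, n = 2) at percentile 48.8. The ranges of the libraries of Mei1 and Rec114 do not overlap, with Mei1 lower in both, and both genes are below the other 4 in both libraries. The peak lay mostly downstream of the start, with its middle in an exon of Mei1. It ran from 5 to 224 in replicate 1 and, across the start, from -15 to 284 in replicate 2. Within 100 bp of the start at 82069996, 157 bases were below the FDR limit in replicate 1 and 136 in replicate 2. These included bases upstream of the start in both libraries. Replicate 1 alone had a further peak of 0.565 from 345 to 664. Of 5 footprints in replicate 1 and 2 in replicate 2, 1 was shared. It ran from 72 to 96 in replicate 1 and from 74 to 101 in replicate 2. The bases common to both libraries lie within the 30 bases shown for Mei1, which end at 100.

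**Figure D2:**
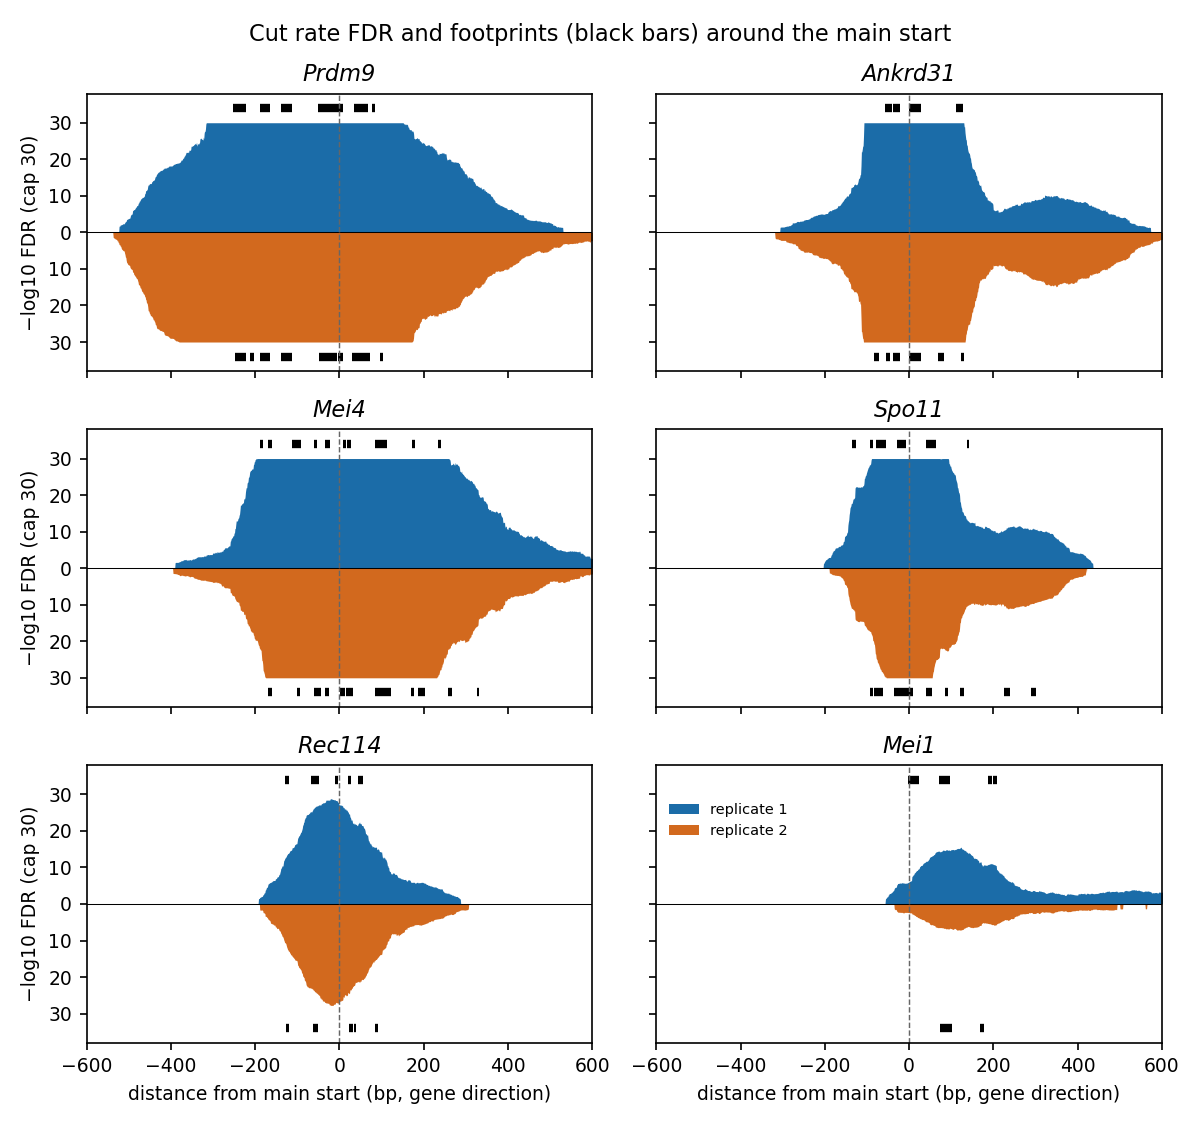
Negative log10 of the FDR of the cut rate (y axis, drawn to 30 at most) within 600 bp of the main start of each gene (x axis, bp in the direction of the gene), replicate 1 upward in blue and replicate 2 downward in orange, with footprints as black bars. The Prdm9 profile is the widest, and that of Mei1 is lowest and lies mostly downstream of the start, which it crosses in both libraries.

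Of the 27 distinct annotated starts of the 6 genes, 15 had a peak within 100 bp in both libraries, a share of 55.6% against 43.6% of the 93399 starts of all genes. These 15 included at least 1 start of each gene. Starts close together can share 1 peak, as the 3 starts of Mei4 do, so they are not separate observations. Another 11 starts had no base below the FDR limit within 1000 bp in either library: 2 starts of Prdm9 inside the gene, 4 starts of Rec114, 3 of Mei1, 1 of Spo11 and 1 of Ankrd31. The share of such starts over all genes was not computed. The 3 such starts of Mei1 lie together at 82082464, 82082476 and 82083163, more than 12 kb into the gene. The Mei1 promoter that RefSeq lists, chr15:82082226-82082525, lies at these starts and held neither a peak nor a base below the FDR limit nor a footprint in either library. For the other 4 genes found in that table by symbol, Prdm9, Mei4, Rec114 and Ankrd31, a listed promoter overlapped the highest peak in both libraries.

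Footprints lay in the promoter windows of all 6 genes in both libraries, against 67.4% of all genes. Replicate 1 had 40 footprints at these genes and replicate 2 had 49, and 27 in each overlapped a footprint of the other library. Most lay in a promoter peak, 30 of the 40 and 31 of the 49. The shares shared between libraries or in a peak were not computed for the footprints of all genes, so they do not set these genes apart. Replicate 2 also had more footprints over the whole genome.

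The 6 promoters do not share 1 set of sequence motifs. In 200 bp around the middle of the highest peak, 14 short motifs were searched on both strands. For these motifs the shares of windows count a match anywhere in the 200 bp, inside a footprint or not. CCAAT, the box bound by NF-Y, was found at Prdm9, Mei4 and Rec114 and in 31.5% of the windows of open genes, and the match at Prdm9, from -19 to -15, lies in a footprint in both libraries. GGGCGG, an Sp-type GC box, was found at Prdm9, Mei4 and Ankrd31, against 61.3% of windows. At Ankrd31 it occurs 3 times, at -75, -54 and -32, each read on the strand of the gene.

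The less common motifs fell on Prdm9, Spo11, Mei1 and Rec114. GGCGGGAA, an E2F site, was found on the opposite strand of Prdm9 from -47 to -40 in a footprint in both libraries, and in 3.29% of windows. CNCCTCAG, known for STRA8, the factor that starts the meiotic programme, was found at Prdm9 from -41 to -34 in a footprint in both libraries and again from 14 to 21 outside footprints, at Spo11 from -87 to -80 partly in a footprint in both libraries, and in 6.27% of windows. The E2F match at Prdm9 overlaps both a GGGCGG match and the upstream CNCCTCAG match. CACGTG, an E-box, was found at Mei1 from 49 to 54 and at Rec114 from -19 to -14, in both outside footprints, against 8.49% of windows. The letters of TGACGTCA (3.23% of windows), CCGGAAG (15.4%), CCGTTA, bound by MYB proteins (2.32%), GTTGCCA, part of RFX sites (3.36%), TATAAA (2.50%), AAGATGGCG (2.74%), ACANTGT (2.19%) and ACTACAATT (0.545%) did not occur in these 6 windows.

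GCGCATGC, part of the site of NRF1, was found at Spo11 as overlapping matches on both strands from -22 to -13, in a footprint in both libraries, and in 5.43% of windows. The shown sequences of Prdm9, Spo11 and Mei1 hold a wider pattern, GCGCNNGCGC, which reads the same on both strands, contains those Spo11 matches, and was chosen after the sequences were seen. It lies whole inside a footprint in both libraries at Prdm9 from -183 to -174, at Spo11 from -71 to -62 and again from -22 to -13, and at Mei1 from 77 to 86. The matches read GCGCCTGCGC at Prdm9, GCGCCTGCGC and GCGCATGCGC at Spo11, and GCGCTTGCGC at Mei1. Of the 15057 open genes, 12.6% had a match whole inside a promoter footprint in both libraries, and 26.7% had a match anywhere in their promoter windows. At Mei1 the match lies in the 1 shared footprint. A match describes letters only, and the binding of a factor was not measured.

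The base composition of the promoters also varied. The 200 bp around the peak had 70.5% G and C at Spo11, 70.0% at Mei1 and Mei4, 69.0% at Ankrd31, 62.0% at Prdm9 and 57.5% at Rec114, against a median of 65.5% over open genes. CpG observed over expected was 0.522 at Prdm9, at percentile 16.1 of open genes, and 1.09 at Mei1, at percentile 91.5. Of the 6, the gene with the highest promoter value thus had the lowest CpG ratio, and the gene with the lowest value the highest ratio. The genes between them did not follow that order, with 0.931 at Spo11, 0.842 at Ankrd31, 0.791 at Rec114 and 0.653 at Mei4.

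Outside promoters the surroundings of the 6 genes ranged from no listed peak to 7. Distal peaks, those within 50 kb of a start of the gene and outside the promoter windows of all genes, numbered 7 in replicate 1 and 6 in replicate 2 at Rec114, 3 and 4 at Prdm9, 3 and 3 at Mei1, and 2 and 3 at Spo11, against a median of 4 over all genes in each library. These counts are not per length, and more sequence is searched where annotated starts lie far apart. The starts of Rec114 run from 58659292 to 58743964, and those of Mei4 from 81863670 to 81863709. Mei4 and Ankrd31 had none in either library, as did 9.48% of all genes. Within 100 kb Mei4 still had none and Ankrd31 had 1 in the mean of the libraries. Across the 342 kb of Mei4, each library listed 1 weak peak outside the promoter (0.167 in replicate 1 and 0.177 in replicate 2), not at the same place. Across the 162 kb of Ankrd31 there was 1, shared between the libraries (0.360 and 0.298).

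Distal peaks of these genes were mostly weak and mostly found again. The share found again was not computed for the distal peaks of all genes, so it does not set these genes apart. The members' 15 distal peaks in replicate 1 had a median value of 0.462 and the 16 in replicate 2 one of 0.508, and 12 and 13 of them overlapped a peak of the other library. Rec114 had 3 peaks in its introns in both libraries. The highest of them, at chr9:58710061-58710240, had 1.24 in replicate 1 and 0.827 in replicate 2, against 1.80 and 1.71 at the promoter of Rec114. The highest distal peak near Prdm9, about 34.1 kb from its 5′ end and beyond the 3′ end of the gene, had 0.640 in replicate 1 and 1.03 in replicate 2, and both peaks near Spo11 that the libraries share were below 0.7.

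The highest distal peak of the 6 genes lies 4.28 kb upstream of Mei1, with the same limits in both libraries, and is shown because its value is above that of the Mei1 promoter itself. Its values were 2.39 in replicate 1 and 2.31 in replicate 2, so that the Mei1 promoter had 0.674 and 0.385 of them. The peak lies in a coding exon of 4930407I10Rik, a gene on the same strand with no promoter peak in either library, and held 5 footprints in replicate 1 and 4 in replicate 2. Whether the peak acts on Mei1 was not measured. Its sequence, at chr15:82065621-82065820 on the plus strand, with bases inside a footprint in both libraries in capitals, is as follows.
Mei1 upstream peak: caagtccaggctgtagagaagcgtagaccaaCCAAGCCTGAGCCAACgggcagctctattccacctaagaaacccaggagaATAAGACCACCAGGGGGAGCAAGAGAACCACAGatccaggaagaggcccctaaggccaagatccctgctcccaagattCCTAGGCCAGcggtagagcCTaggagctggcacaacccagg

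**Figure D3:**
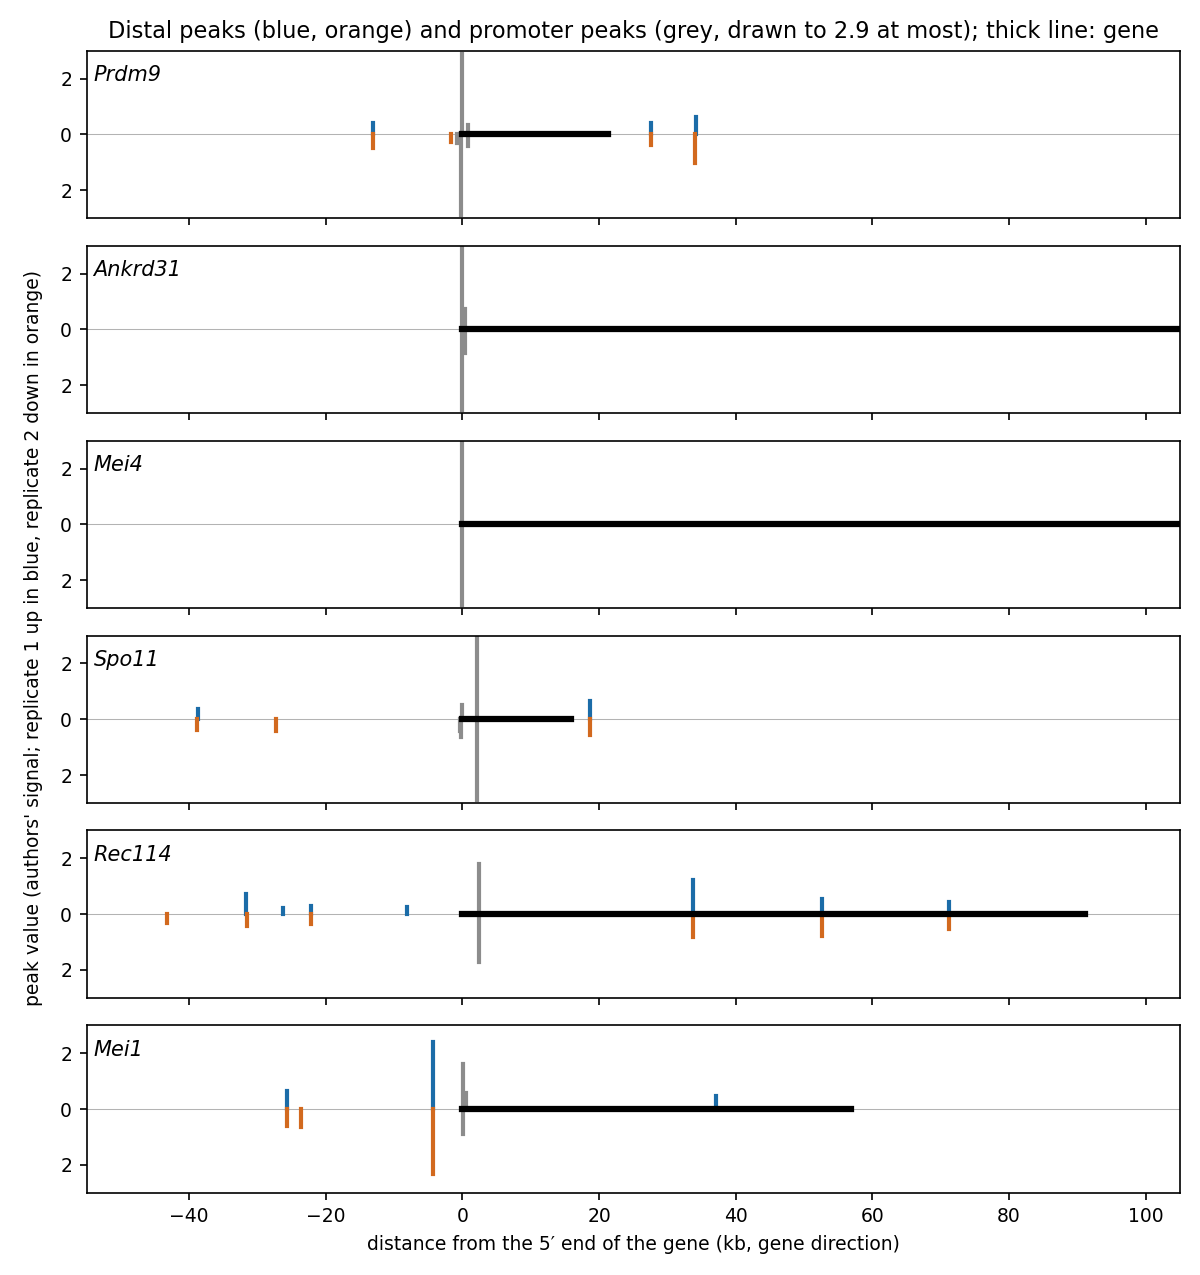
Peak values (the authors' signal, replicate 1 upward and replicate 2 downward) by distance from the 5′ end of each gene in kb, in the direction of the gene (thick line). Distal peaks are blue and orange, promoter peaks grey and drawn to 2.9 at most. Mei4 and Ankrd31 have no distal peak, and the peak 4.28 kb upstream of Mei1 is taller than that of its promoter.

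Mei1 also had the largest difference between the libraries of the 6 genes. On the log2 scale, replicate 2 over replicate 1, its promoter value had a ratio of -0.86, against -0.41 at Prdm9, -0.29 at Spo11, -0.07 at Rec114 and at Ankrd31, and 0.10 at Mei4. Over the open genes the median was -0.07 and the range from the 5th to the 95th percentile was -0.54 to 0.36. The Mei1 ratio stood at percentile 0.369 of the open genes, and at 0.778 of the 2379 open genes whose mean value was within 1.5 times that of Mei1. In the smallest steps in which each library's values are written, Mei1 had 300 in replicate 1 and 236 in replicate 2. If each step is an independent event, which the files do not state, the ratio has a standard error of 0.13 from counting alone.

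Near Mei1 the values were closer between the libraries. The upstream peak had 2.39 in replicate 1 and 2.31 in replicate 2, and the promoter of Snu13, an RNA-binding protein gene nearby, had 5.44 and 4.87. Of the 6 genes 5 had the higher value in replicate 1, as had 60.5% of the open genes. That count depends on the scale of each library: with values divided by the median peak of the library, every log2 ratio shifted by 0.10, the median of open genes came to 0.03, and 3 of the 6 genes were higher in replicate 1, as were 45.9% of the open genes. Rec114 then had a ratio of 0.03 and Ankrd31 of 0.04, both with the sign turned, and Mei1 kept its sign at -0.75. Prdm9 stood at percentile 11.7 of all open genes by its ratio, and at 2.65 of the 2395 open genes with a mean value within 1.5 times its own. A cause of these differences was not tested.

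**Figure D4:**
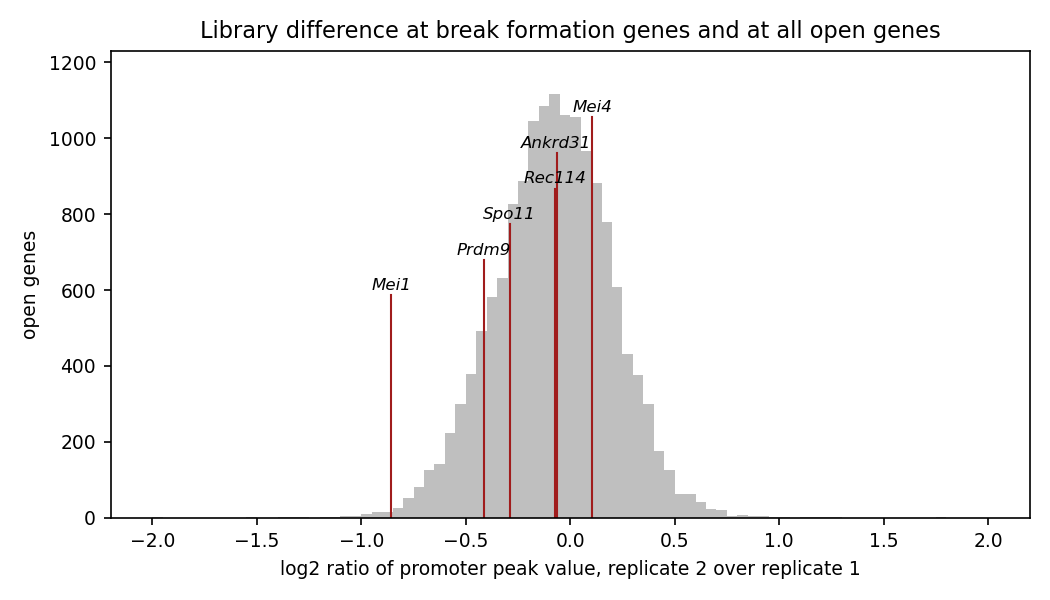
Log2 ratio of the promoter value, replicate 2 over replicate 1, of the 15057 open genes as a histogram (y axis, number of genes) with the 6 genes as red lines and ratios beyond the axis counted at its ends. Mei1 at -0.86 lies outside the range of -0.54 to 0.36 that holds the middle 90% of open genes, and the other 5 lie inside it.

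Among the partners in placing and forming breaks, 9 of 10 genes were open in both libraries, against 68.7% of all genes, and their median promoter value was 6.62 in replicate 1 and 5.53 in replicate 2. The highest were Atm, the kinase that limits break number, with 17.1 and 16.3, Zcwpw1, a reader of the marks that PRDM9 sets, with 13.6 and 15.7, and Ewsr1, which binds PRDM9, with 12.9 and 10.5. The lowest open genes were Hormad2, an axis protein, with 3.96 and 4.65, and Gm960, also called Top6bl, which forms the break enzyme with SPO11, with 4.91 and 3.80. Spo11 and Gm960 thus had values that differ by less than the spread between their libraries. Whether other genes share the promoter peaks of these partners was not checked.

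Ccdc36, which encodes IHO1, the partner of MEI4 and REC114, was the 1 gene without a promoter peak, with no base below the FDR limit within 1000 bp of its single GENCODE start. RefSeq, where the gene is named Iho1, places a start farther upstream. Its listed promoter, chr9:108431777-108432076, overlaps a peak with the same limits in both libraries, of 3.91 in replicate 1 and 3.18 in replicate 2, and holds 3 footprints in each. That peak lies 3.39 kb from the GENCODE start. Its value lies between the promoter values of Rec114 and Spo11 in both libraries. Those are the highest within 1000 bp of any start, and no such window was scored around the RefSeq start.

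All 11 genes of the list for processing broken ends and strand invasion were open in both libraries, against 68.7% of all genes, with a median of 5.88 in replicate 1 and 4.69 in replicate 2, against 4.80 and 4.40 over the 6 break formation genes. The highest were Mre11a and Rad50, subunits of the nuclease complex that trims the ends, with means of 7.91 ± 0.934 and 7.60 ± 0.359, and Dmc1, the meiotic strand exchange protein, with 6.24 ± 0.867 (SD, n = 2 each). The lowest were Hsf2bp, which brings BRCA2 to the breaks, with 3.06 ± 0.227, and the nuclease Exo1 with 3.16 ± 0.187 (SD, n = 2 each). Values of the list thus ran from 3.06 to 7.91, a narrower range than the 1.25 to 15.9 of the 6 break formation genes. Sharing of the list's peaks with other genes was not checked either.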

How the data were processed

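DNase-seq of 2 libraries of 1 group was analysed. Per the labels and the deposited text descriptions, each library was aligned to mm10 and its files were made from that library alone; for the aligner, the callers and their versions, nothing is given in the sources used here. The peak values are a signal that the authors deposited, scaled per library: 100% of values below 1 were whole multiples of 1 step (0.00538 in replicate 1 and 0.00377 in replicate 2) within 0.05 steps, and what a step stands for is not given. The FDR track holds q-values that the authors deposited only below 0.05. In the footprints the authors deposited, the p-value column reads 0.01 throughout, so only positions were used.

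Promoter values, distal peaks and footprints were computed with Python 3.11.15, numpy 2.4.6, pandas 2.3.3 and pysam 0.24.0 for protein-coding genes (GENCODE M21, GRCm38.p6), with overlaps counted from 1 bp, and checked on simulated peaks. Counting errors take each step as an independent event and cover counting error only. No model across genes was fitted, and percentiles describe these libraries and are not p-values. The 6 genes, the gene lists and the motifs were chosen with earlier results of these data known. All 6 genes are named, of each list the 3 highest and 3 lowest by mean (1 gene that this rule names is not reported here), markers by their counts, and the neighbours where they bear on a member's value; Snu13, Nptn and 4930407I10Rik were named after their values were seen. Of the 6 genes, 5 were matched by symbol in the RefSeq promoter table. Alternatives were windows of 500 and 2500 bp, the 5′ end alone, the shorter lists, peak midpoints, summed values, values divided by the library median, distal windows of 25 and 100 kb, footprints wholly inside a promoter peak, an FDR of 0.001, and each library alone.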

Additional observations from a re-analysis of the deposited data

How the results depend on the processing

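All 6 genes were open under each alternative except with the 5′ end of the gene alone, where 5 were, since Rec114 had no peak there, Spo11 had 0.571, and the median promoter value over the 6 genes came to 3.04. The median was 5.07 with peak values summed, 8.92 times the median peak when values were divided by the library median, and 4.40 to 4.80 with each library alone. The open share of all genes was 67.2% with windows of 500 bp, 71.7% with 2500 bp, 64.0% with the 5′ end alone, 63.4% in the shorter lists, 68.5% by peak midpoints and 70.2% to 70.5% in each library alone. Spo11 had no distal peak in the shorter lists and Rec114 had 3, against a mean of 2.5 and 6.5 in the longer ones. Within 25 kb the mean number of distal peaks was 1 at Spo11 and 2.5 at Rec114, and within 100 kb it was 9 at Spo11, 13.5 at Rec114, 9.5 at Prdm9, 10.5 at Mei1 and 1 at Ankrd31. With footprints wholly inside a promoter peak, the mean fell to 3 at Prdm9, against 8.5, and to 6.5 at Mei4, against 11. The log2 ratios between libraries at Rec114 and Ankrd31 changed sign with values divided by the library median, to 0.03 and 0.04. Without replicate 1, Mei1 had 0.891 and 2 footprints. With 2 libraries the SDs are themselves uncertain, weak peaks seen in 1 library rest on few steps, and a place without a listed peak is not shown to be closed. No paired analysis was possible because there is 1 group.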
